A study of Homo sapiens with 6 samples.

Results

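The 34 genes described here act in homologous recombination, in the Fanconi anemia pathway of DNA crosslink repair and in the damage signalling that feeds both. They were chosen by name: every row of the deposited expression table whose symbol was on a list of 34 repair genes was taken, and all 34 of 34 were found among the 17891 genes of the table. All 34 also passed the filter on low counts, which 14076 genes passed. The cells were T47D, an established human line of luminal, hormone receptor-positive breast cancer. In the PRL group (3 libraries) they had received a puromycin-selectable lentivirus with PRL, the gene of the hormone prolactin, and in the control group (3 libraries) a lentivirus without it. Both groups had been screened and grown in serum-containing RPMI medium without further treatment. Whether either line was a clone or a pool, and which promoter drives PRL, is not given in the sources used here. The series calls the 3 libraries of a group biological replicates but does not say how they were separated. The p-values set the difference between groups against the spread between these libraries. Whether that spread includes separately made lines is not known.

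Homologous recombination repairs a broken chromosome by copying the sister chromatid. The MRE11-RAD50-NBN complex finds the break and recruits the kinase ATM, nucleases cut back one strand, and BRCA1, PALB2 and BRCA2 prepare the single strand for the search for its sister. The Fanconi core complex, with the conjugating enzyme UBE2T, puts ubiquitin on FANCD2 and FANCI when a crosslink stalls a replication fork, and ATR with CHEK1 holds the cell cycle meanwhile. Many of these genes are transcribed mainly in S phase under E2F control, and inherited loss of several of them predisposes to breast cancer.

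Libraries held 16211146 to 17402348 counts. Levels below are in CPM, the count relative to a library size scaled by TMM (trimmed mean of M values), on which a single count is worth 0.0551 to 0.0678 CPM. The PRL transcript had 1 to 3 counts in the control libraries and 7789 to 8277 in the PRL libraries, in the direction of the labels. All 10 luminal epithelial markers of T47D were detected and tested. On the TMM scale 4 were lower and 4 higher, and their summed level was 20769 to 26594 CPM in the controls and 16529 to 16977 CPM in the PRL group, without overlap. Of 15 stromal, endothelial and immune markers, 14 were in the table and 6 passed the filter. On the TMM scale 4 of these 6 were higher and none lower. They were CD68 (2.09 in log2, edgeR adjusted p = 6.1e-07), CD14 (1.30, edgeR adjusted p = 0.0142), CD3E (0.97, edgeR adjusted p = 0.0306) and COL1A1 (0.51, edgeR adjusted p = 0.00196). The calls of CD14 and CD3E were lost in 3 and 6 of the settings. The summed level of the 14 was 47.9 to 66.8 CPM in the controls and 90.5 to 91.3 CPM in the PRL group, mostly COL1A1. The leukocyte gene PTPRC lay at 0.925 ± 0.0828 CPM in the controls and 0.950 ± 0.247 CPM in the PRL group (SD, n = 3, as in all such pairs below), the macrophage gene CD68 at 3.54 and 15.1 CPM, and the endothelial gene CDH5 at 0 in controls. The part of these markers in the results was not tested. Control libraries differed from each other more than PRL libraries did, with a chi-square of 13.001 to 24.8 per gene between controls and 1.68 to 2.20 between PRL libraries.

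The comparison addresses how forced expression of prolactin goes with the levels of these transcripts. On the TMM scale 16 of the 34 genes fell, 4 rose and 14 did not pass, whereas with library totals 4 fell and 8 rose, and on TPM 1 fell and 11 rose. The threshold was an adjusted p under 0.05 by edgeR's quasi-likelihood test with Benjamini-Hochberg adjustment over all genes (limma on TPM). In bulk libraries fewer cells in S phase and less transcript per cell cannot be told apart. The 16 are 47.1% of the members, where 30.5% of all tested genes were lower, and the 4 are 11.8%, where 32.4% of all tested genes were higher. These shares stood otherwise under other scalings: 11.8% of members against 17.0% of all genes were lower with library totals, 21.2% against 19.9% on FPKM, and 2.94% against 11.01% on TPM. With library totals 23.5% of members against 45.7% of all genes were higher, on FPKM 24.2% against 46.3%, and on TPM 32.4% against 57.0%. Changes were small. RAD51C, which acts with XRCC2 and XRCC3 in recombination, was the only member to fall by at least 2-fold, and 3 members (8.82%) fell by at least 1.5-fold, against 15.4% of all tested genes. The median log2 fold change of the members was -0.21, beside 0.01 for all tested genes. In 18 members (52.9%) all PRL libraries lay below all control libraries, against 33.5% of tested genes. The summed level of the 34 genes was 1200.2 to 1322 CPM in the controls and 1008 to 1031 CPM in the PRL group, without overlap.

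**Figure D1:**
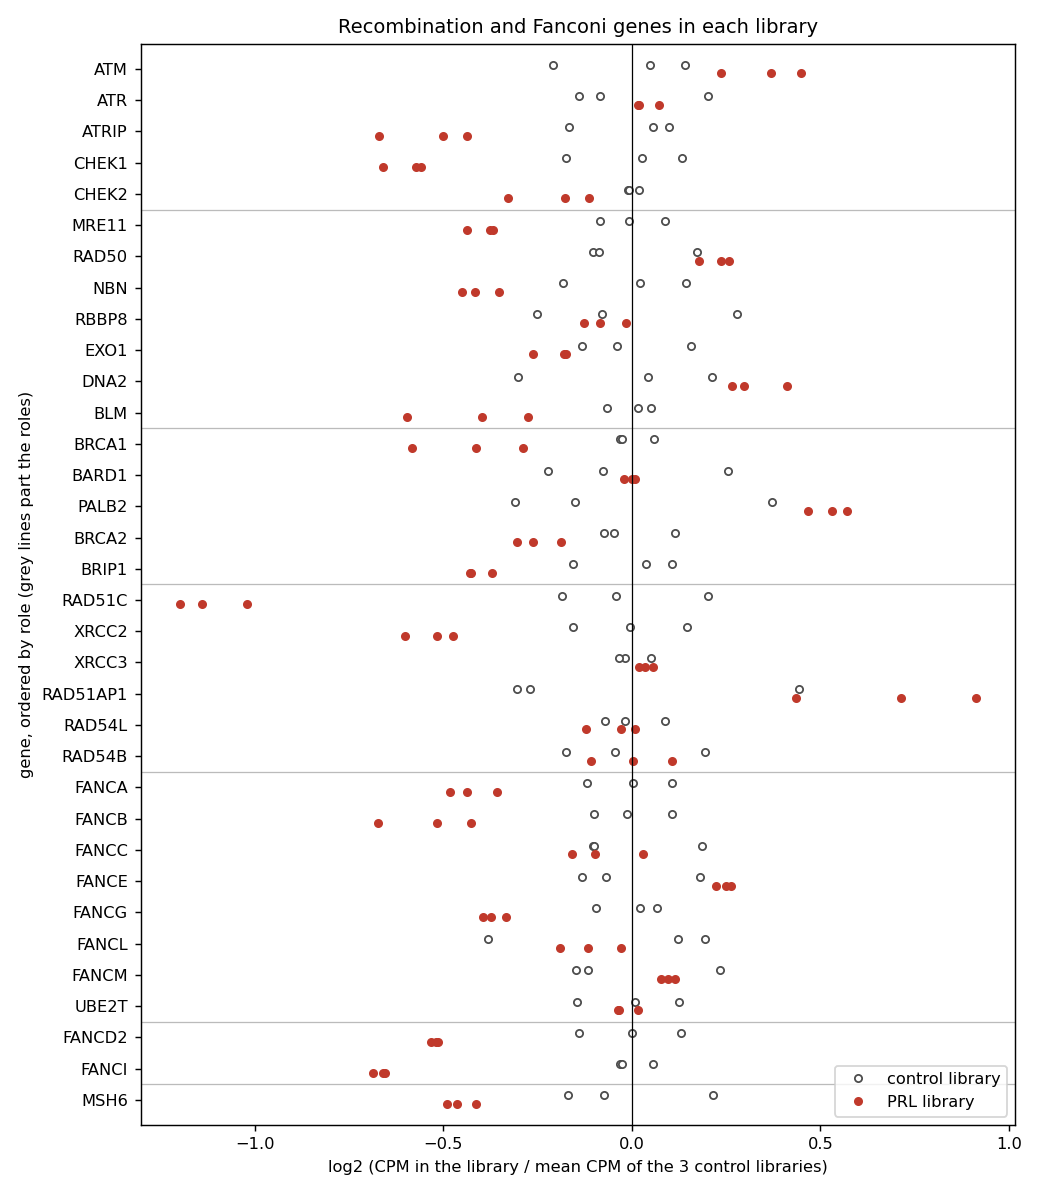
Level of each of the 34 genes in each library, as log2 of its CPM over the mean of the 3 control libraries, with genes ordered by role; open circles are control libraries and red circles PRL libraries. RAD51C lies farthest to the left, between 33.0 and 37.3 CPM in the PRL libraries against 66.6 to 87.0 CPM in controls, and the controls of most genes spread more widely than the PRL libraries.

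**Figure D2:**
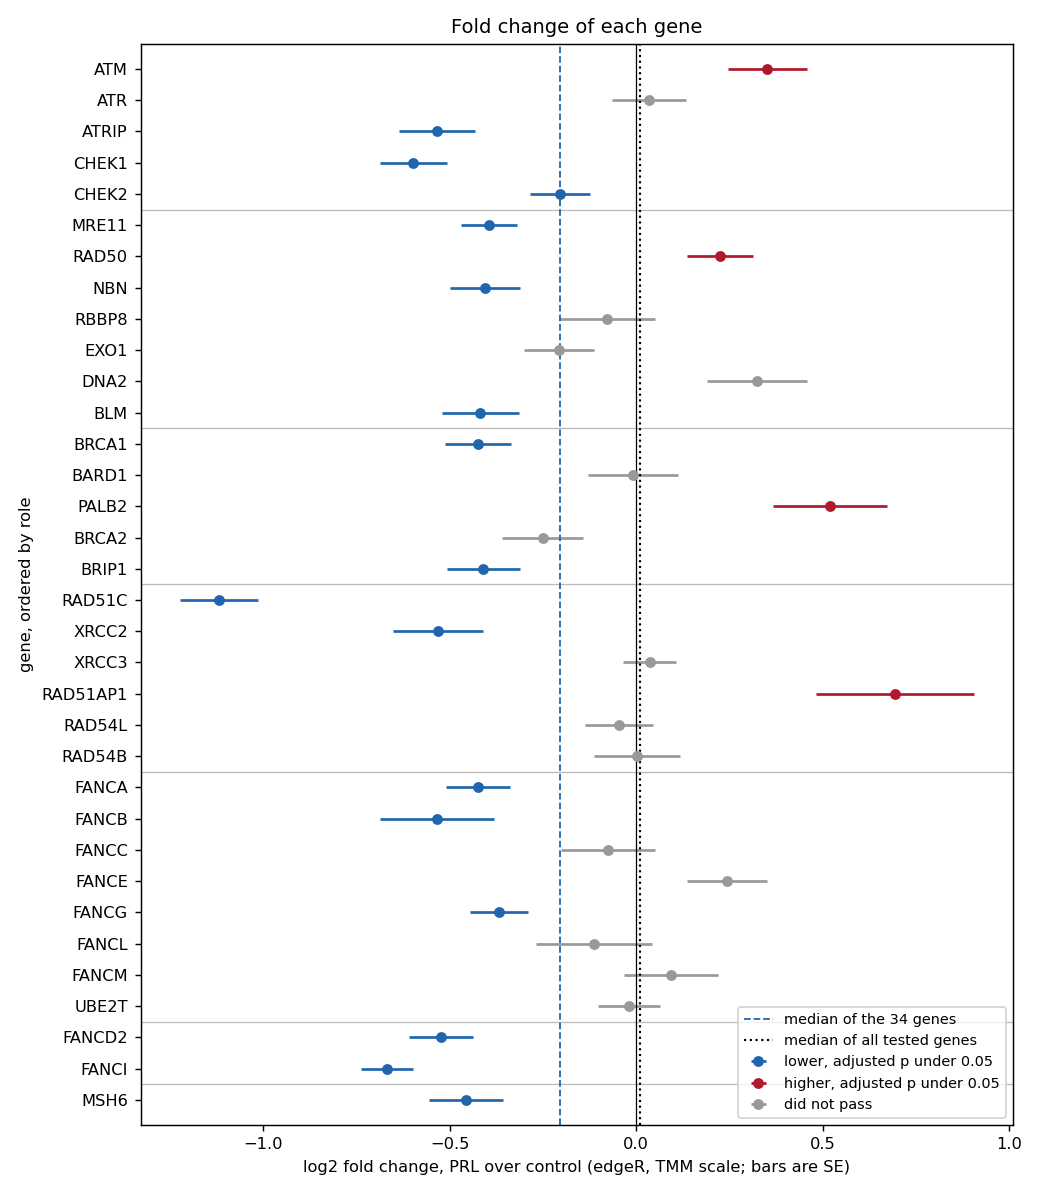
Log2 fold change of PRL over control for each gene with its SE (edgeR, TMM scale); blue marks genes that fell, red genes that rose and grey genes that did not pass. The dashed line is the members' median of -0.21 (0.09 on TPM) and the dotted line the median of all tested genes, 0.01 (0.39 on TPM).

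Most single calls depended on how libraries were scaled. Ribosomal protein genes took 15.6% to 18.7% of counts in controls and 10.1% to 10.6% in the PRL group, and their part in these shifts was not tested beyond leaving them out of the TMM scaling, which left 16 members lower and 3 higher. In that fit 31.1% of all tested genes were lower and 32.0% higher. With library totals in place of TMM the median of all genes moved to 0.26, and 4 members fell and 8 rose. Those 4 were RAD51C, CHEK1, FANCI and ATRIP. ATM, RAD50, PALB2 and RAD51AP1, the 4 that rose on TMM, passed as higher with library totals, on FPKM and on TPM too. On FPKM 7 members fell and 8 rose (median of all genes 0.20), and on TPM, where the median of all genes was 0.39, RAD51C alone fell and 11 rose. Over all genes, higher genes made up 51.4% of calls on TMM, 72.8% with library totals, 69.9% on FPKM and 83.8% on TPM. The members' median stayed below that of all genes by 0.17 to 0.35 in every setting tried. Below, rises and falls are relative to the TMM scale, and single calls lost under other scalings are named with the genes.

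**Figure D3:**
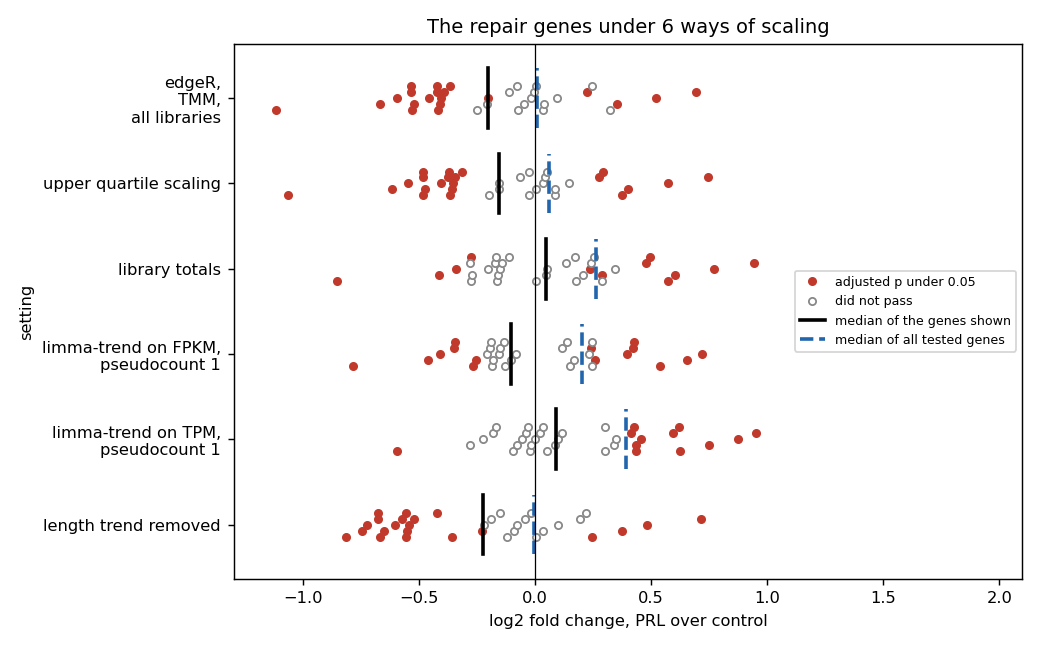
Log2 fold changes of the repair genes under 6 settings; filled circles have an adjusted p under 0.05, black bars are the medians of the genes shown and blue dashed bars the medians of all tested genes. The whole set of genes moves with the scaling, from a median of -0.21 on TMM to 0.09 on TPM, and in each row the black bar lies to the left of the blue one.

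RefSeq promoter windows (GRCh38.p14, 250 bases before to 50 bases after the start) were matched by gene ID for 30 of the 34 members. DNA2, NBN, RAD54B and FANCI had no window. E2F motifs, searched on both strands as TTTCCCGC, TTTGGCGC, TTCCCGCC and TTGGCGCC, of which the first can overlap the third and the second the fourth, were in 11 of 30 windows (36.7%), in 8.4% of the 11404 windows of tested genes and in 5.4% of all 27305 windows. Among members with a window they were in 6 of the 14 that fell, 1 of the 4 that rose and 4 of the 12 that did not pass. Each window lies at a single RefSeq start per gene, and other starts were not searched. The window of BRCA1 lies by its outermost annotated start, and those of RBBP8, FANCC and MSH6 lie well inside the annotated gene. Which start T47D cells use was not tested, so these counts hold for the windows used. The CCAAT box, CCAAT on both strands, was in 15 of 30 member windows and in 36.5% of those of tested genes. The cell cycle homology region motif TTTGAA was in 4 member windows (13.3%) against 10.0%, the STAT motif TTCNNNGAA in 3 (10.0%) against 6.2%, and the interferon response element in 0 against 2.8%. Shown next are 140 bases, 120 before and 20 after the RefSeq start. They are from the largest fall, another fall among the signalling kinases, a fall with E2F motifs and the largest rise. Capitals mark matches to E2F or CCAAT motifs.
RAD51C (chr17:58692453-58692592, plus strand): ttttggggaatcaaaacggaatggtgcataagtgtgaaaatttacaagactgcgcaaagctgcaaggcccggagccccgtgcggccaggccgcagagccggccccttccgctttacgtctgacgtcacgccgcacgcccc
CHEK1 (chr11:125626109-125626248, plus strand): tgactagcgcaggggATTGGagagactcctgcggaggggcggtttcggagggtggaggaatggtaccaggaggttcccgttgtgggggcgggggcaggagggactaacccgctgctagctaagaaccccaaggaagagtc
FANCD2 (chr3:10026317-10026456, plus strand): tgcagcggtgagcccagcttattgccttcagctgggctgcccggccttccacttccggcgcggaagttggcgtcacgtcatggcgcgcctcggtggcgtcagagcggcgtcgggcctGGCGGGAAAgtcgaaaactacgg
RAD51AP1 (chr12:4538770-4538909, plus strand): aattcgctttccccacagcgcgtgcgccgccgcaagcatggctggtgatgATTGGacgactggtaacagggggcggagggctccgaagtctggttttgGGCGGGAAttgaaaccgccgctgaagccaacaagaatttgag
The capitals in FANCD2 are 2 overlapping E2F matches at the start site, those in CHEK1 a CCAAT box, and those in RAD51AP1 a CCAAT box followed by an E2F match. RAD51C held neither motif in its window. FANCD2 fell and RAD51AP1 rose, each with an E2F match near its RefSeq start.

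Among the damage kinases and their partners, ATRIP, CHEK1 and CHEK2 fell, ATM rose and ATR did not pass. ATM, the kinase that answers double-strand breaks (NCBI gene 472, GRCh38 chromosome 11, 108222484 to 108369102), lay at 22.5, 26.9 and 28.7 CPM in control replicates 1 to 3 and 33.6, 35.5 and 30.6 CPM in the PRL libraries. The groups did not overlap, and ATM rose (a log2 change of 0.35 with an SE of 0.11, edgeR adjusted p = 0.0134), but without PRL replicate 2 the call was lost (adjusted p = 0.0693). ATR, the kinase that answers stalled forks, overlapped between groups at 30.2 ± 3.95 and 31.0 ± 0.683 CPM (log2 fold change 0.03). On TPM ATR passed as higher (0.41, limma adjusted p = 0.0248).

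ATRIP, which brings ATR to single-stranded DNA, was 31.9, 32.8 and 27.3 CPM in the controls and 19.3, 21.7 and 22.7 CPM in the PRL group. Every PRL library lay below every control, and ATRIP fell (a log2 change of -0.53 with an SE of 0.10, edgeR adjusted p = 0.00106). Of its exon bases 27.9% also belong to TREX1, a DNA exonuclease gene on the same strand, which fell from 10.5 ± 3.85 to 3.54 ± 0.943 CPM, so the division of reads between them is uncertain. CHEK1, the effector kinase of ATR (NCBI gene 1111, GRCh38 chromosome 11, 125625136 to 125676255), was 94.2, 81.9 and 101.4 CPM in the controls and 62.2, 62.7 and 58.5 CPM in the PRL group. It fell by 0.60 on the log2 scale (SE 0.09, edgeR adjusted p = 2.2e-04), without overlap between the groups. ATRIP (at an adjusted p of 0.04999) and CHEK1 kept their calls with library totals, and both did on FPKM, but not on TPM (limma adjusted p = 0.213 and 0.0669). CHEK2, the effector kinase of ATM, fell only slightly, from 50.3 ± 0.544 to 43.7 ± 3.29 CPM (-0.20 in log2, edgeR adjusted p = 0.0440). That call ended under 14 of 20 alternatives, and the value was 0.05 with library totals.

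The break-sensing complex did not move as a unit. MRE11, its nuclease, fell from 65.5 ± 3.93 to 49.9 ± 1.28 CPM (-0.39 in log2, edgeR adjusted p = 0.00106), and NBN, which binds ATM, fell as well, with controls at 42.0 to 52.6 CPM and PRL libraries at 34.9 to 37.3 CPM (-0.41, edgeR adjusted p = 0.00319). Neither passed with library totals, on FPKM or on TPM, and their values on TPM were 0.10 and 0.05. RAD50, the ATPase that tethers DNA ends, went the other way, at 49.4, 50.01 and 59.9 CPM in the controls and 63.5, 62.6 and 60.1 CPM in the PRL group. Control replicate 3 came close to PRL replicate 3, and RAD50 rose by 0.22 on the log2 scale at an edgeR adjusted p of 0.0467. The call was lost without control replicate 1, control replicate 2 or any PRL replicate (adjusted p 0.0849 to 0.145), and in 11 of 20 alternatives in all. An overlap also bears on it, as 79.7% of its exon bases are shared with a same-strand annotated locus not analysed here.

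Of the resection and unwinding genes, 1 of 4 changed. The helicase gene BLM fell from 22.8 ± 0.936 to 17.1 ± 1.90 CPM (-0.42 in log2, edgeR adjusted p = 0.00480). EXO1, the long-range exonuclease, was 28.9, 27.2 and 33.2 CPM in the controls and 24.8, 26.4 and 26.3 CPM in the PRL group, and DNA2, the nuclease-helicase, 9.15, 13.1 and 11.6 CPM in the controls and 15.01, 13.5 and 13.9 CPM in the PRL group. Neither gene's groups overlapped, but neither passed (-0.21 in log2, edgeR adjusted p = 0.0782, and 0.32, edgeR adjusted p = 0.0536). DNA2 passed as higher under 9 of 20 alternatives, and EXO1 as lower without control replicate 2 (adjusted p = 0.0315) and with the length trend removed (0.0415). RBBP8, which encodes the resection starter CtIP, overlapped between the groups (21.4 ± 4.12 and 20.3 ± 0.799 CPM). BLM lost its call with library totals, on FPKM and on TPM.

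The genes whose proteins form the BRCA1-PALB2-BRCA2 bridge did not move together: BRCA1 fell, PALB2 rose and BRCA2 did not pass. BRCA1, which directs repair toward recombination, fell from 52.7 ± 1.84 to 39.3 ± 3.97 CPM (a log2 change of -0.42 with an SE of 0.09, edgeR adjusted p = 0.00181). Its obligate partner BARD1 had a log2 fold change of -0.01, at 20.2 ± 3.52 and 20.1 ± 0.211 CPM, and BRIP1, a helicase that binds BRCA1, fell from 21.7 ± 2.01 to 16.3 ± 0.385 CPM (-0.41, edgeR adjusted p = 0.00397). PALB2, the bridge itself (NCBI gene 79728, GRCh38 chromosome 16, 23603160 to 23641310), was 11.7, 13.1 and 18.8 CPM in the controls and 21.0, 21.6 and 20.1 CPM in the PRL group. All PRL libraries lay above the controls, of which replicate 3 stood closest, and PALB2 rose (a log2 change of 0.52 with an SE of 0.15, edgeR adjusted p = 0.0123). Without control replicate 2 the adjusted p was 0.0643. BRCA2, which acts downstream of PALB2, was 11.05, 10.8 and 12.4 CPM in the controls and 9.52, 10.02 and 9.24 CPM in the PRL group. These groups did not overlap either, but BRCA2 did not pass (-0.25 in log2, edgeR adjusted p = 0.0649). It passed as lower with DESeq2 size factors (adjusted p = 0.0496) and with the length trend removed (-0.36, adjusted p = 0.0177). BRCA1 lost its call with library totals and on TPM, and BRIP1 in addition on FPKM.

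RAD51C, XRCC2 and XRCC3, related genes that act in strand exchange, differed widely among themselves. RAD51C (NCBI gene 5889, GRCh38 chromosome 17, 58692573 to 58735611, plus strand) was 87.0, 73.5 and 66.6 CPM in the controls and 33.0, 37.3 and 34.4 CPM in the PRL group. Every control lay far above every PRL library, and RAD51C fell by 53.9% (a log2 change of -1.12 with an SE of 0.10, edgeR adjusted p = 1.0e-05). Alone among the members that fell, RAD51C kept its call in all 20 alternatives, with values from -1.18 to -0.60, the latter on TPM. With each library's trend on gene length removed it was -0.75. XRCC2 was 9.90, 12.2 and 10.98 CPM in the controls and 7.25, 7.93 and 7.70 CPM in the PRL group, without overlap. It fell by 0.53 on the log2 scale (SE 0.12, edgeR adjusted p = 0.00287), a call that ended with library totals, on FPKM and on TPM. XRCC3, whose protein pairs with that of RAD51C, had a log2 fold change of 0.04 (45.6 ± 1.44 and 46.7 ± 0.615 CPM), and passed as higher with library totals, on FPKM and on TPM. Of its exon bases 76.7% are overlapped by KLC1 on the opposite strand, and the use of strand in counting is not given in the sources used here.

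RAD51AP1, which helps DNA strands to pair (NCBI gene 10635, GRCh38 chromosome 12, 4538798 to 4560048), had the largest rise among the members. It was 3.86, 3.95 and 6.49 CPM in the controls and 8.97, 6.44 and 7.82 CPM in the PRL group. Control replicate 3 lay above PRL replicate 2, so the groups overlapped, and RAD51AP1 rose by 0.69 on the log2 scale (SE 0.21, edgeR adjusted p = 0.0148). The call was lost without control replicate 1 (adjusted p = 0.0581), control replicate 2 (0.0739) or PRL replicate 1 (0.0673). The motor protein genes RAD54L (19.2 ± 1.09 and 18.6 ± 0.846 CPM) and RAD54B (17.6 ± 2.31 and 17.6 ± 1.30 CPM) did not pass. On TPM RAD54B passed as higher (0.43, limma adjusted p = 0.0207). RAD54L shares 25.1% of its exon bases with LRRC41 on the opposite strand, which rose from 31.4 to 44.4 CPM, and RAD54B shares 59.1% with FSBP on the same strand.

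Of the 7 listed genes of the Fanconi core complex 3 fell, none rose, and UBE2T did not pass. Further core genes were not members and are counted below among the other Fanconi genes. Of these, FAAP20 (-0.82 in log2, edgeR adjusted p = 0.00199) and FAAP24 (-0.46, edgeR adjusted p = 0.0226) fell. Their calls were lost in 1 and 9 of the settings. FANCF (-0.03) and FAAP100 (-0.02) did not pass. FANCA (39.3 ± 3.05 to 29.3 ± 1.29 CPM) and FANCG (46.99 ± 2.68 to 36.4 ± 0.783 CPM), whose proteins bind each other, fell by 0.42 and 0.37 on the log2 scale, with edgeR adjusted p of 0.00150 and 0.00183. FANCB, the X-linked member that joins FANCL in the catalytic module, was 5.90, 5.10 and 5.43 CPM in the controls and 3.43, 4.07 and 3.82 CPM in the PRL group, the scarcest of the members that fell. Its groups did not overlap (a log2 change of -0.53 with an SE of 0.15, edgeR adjusted p = 0.0104), but the call ended without PRL replicate 1 (adjusted p = 0.0574). FANCE, which links the core to FANCD2, was 12.7, 13.3 and 15.8 CPM in the controls and 16.8, 16.3 and 16.6 CPM in the PRL group. All its PRL libraries lay above the controls, yet it did not pass (0.24, edgeR adjusted p = 0.0683). FANCE passed as higher under 6 of 20 alternatives, library totals, FPKM and TPM among them.

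The other listed members of the core overlapped between groups. FANCC (log2 fold change -0.08), the ubiquitin ligase gene FANCL (-0.11) and the DNA translocase gene FANCM (0.09) had edgeR adjusted p of 0.537 to 0.618. FANCM passed as higher on TPM (0.43, limma adjusted p = 0.0346). UBE2T, which hands ubiquitin to FANCL, lay at 81.8 ± 7.69 and 80.8 ± 1.71 CPM (-0.02, edgeR adjusted p = 0.863). UBE2T passed as higher with library totals (0.24), on FPKM (0.24), on TPM (0.44) and with the length trend removed (0.48). FANCG and FANCB lost their calls with library totals, on FPKM and on TPM, FANCA with library totals and on TPM, and ZNF276 on the opposite strand overlaps 23.6% of the exon bases of FANCA.

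Transcripts of the pair that the core complex marks with ubiquitin fell together. FANCI (NCBI gene 55215, GRCh38 chromosome 15, 89243949 to 89317261) was 112.8, 113.2 and 119.9 CPM in the controls and 73.2, 71.6 and 72.9 CPM in the PRL group. The groups stood well apart, and FANCI fell by 37.0% (a log2 change of -0.67 with an SE of 0.07, edgeR adjusted p = 2.1e-05). FANCD2 (NCBI gene 2177, GRCh38 chromosome 3, 10026414 to 10101930) was 44.5, 49.1 and 53.7 CPM in the controls and 34.3, 33.9 and 34.4 CPM in the PRL group. It fell by 30.4% (a log2 change of -0.52 with an SE of 0.09, edgeR adjusted p = 3.8e-04), without overlap. FANCI kept its call with library totals (-0.41) and on FPKM and lost it on TPM (limma adjusted p = 0.0908). FANCD2 kept its call on FPKM and lost it with library totals (adjusted p = 0.0558) and on TPM (0.548).

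MSH6, which recognises base mismatches, fell from 87.9 ± 12.5 to 64.1 ± 1.74 CPM (a log2 change of -0.46 with an SE of 0.10, edgeR adjusted p = 0.00232). The groups did not overlap, at 78.2 to 102 CPM and 62.5 to 66.0 CPM. The call was lost with library totals, on FPKM and on TPM, and FBXO11 on the opposite strand covers 16.2% of its exon bases.

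Compared per length, the genes covered a wide range. In controls the highest FPKM levels were those of UBE2T (90.2 ± 9.93), RAD51C (62.4 ± 4.52), CHEK2 (34.4 ± 2.22) and CHEK1 (27.2 ± 3.67). The lowest were those of BRCA2 (0.880 ± 0.0954), FANCB (1.40 ± 0.0764), FANCM (1.58 ± 0.457) and FANCC (1.91 ± 0.295). In the PRL group UBE2T was at 106 ± 1.42 FPKM and RAD51C at 35.8 ± 2.33, while BRCA2 stayed the lowest at 0.883 ± 0.0404.

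The deposited FPKM and counts together imply a transcript length for each gene in each library, and for several members that length differed between groups. In 14 of the 34 members all PRL libraries had a longer implied length than all controls, which is 41.2%, against 30.9% of 11643 genes. The longest shift was that of RAD54L, from 1926, 2071 and 2206 bases in controls to 2779, 2578 and 2743 bases in the PRL group, a log2 difference of 0.39. CHEK2 (0.25), EXO1 (0.22), BRCA1 (0.20) and CHEK1 (0.15) also lay above 0.14, the value that 95% of genes did not exceed. ATM had the largest shortening, from 12879, 11792 and 11952 bases to 11126, 10970 and 11052 bases (-0.14). FANCG, by comparison, stayed between 2506 and 2507 bases in all 6 libraries. The counting tool is not given in the sources used here, so which transcripts stand behind these lengths is not known, and the differences carry no test.

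**Figure D4:**
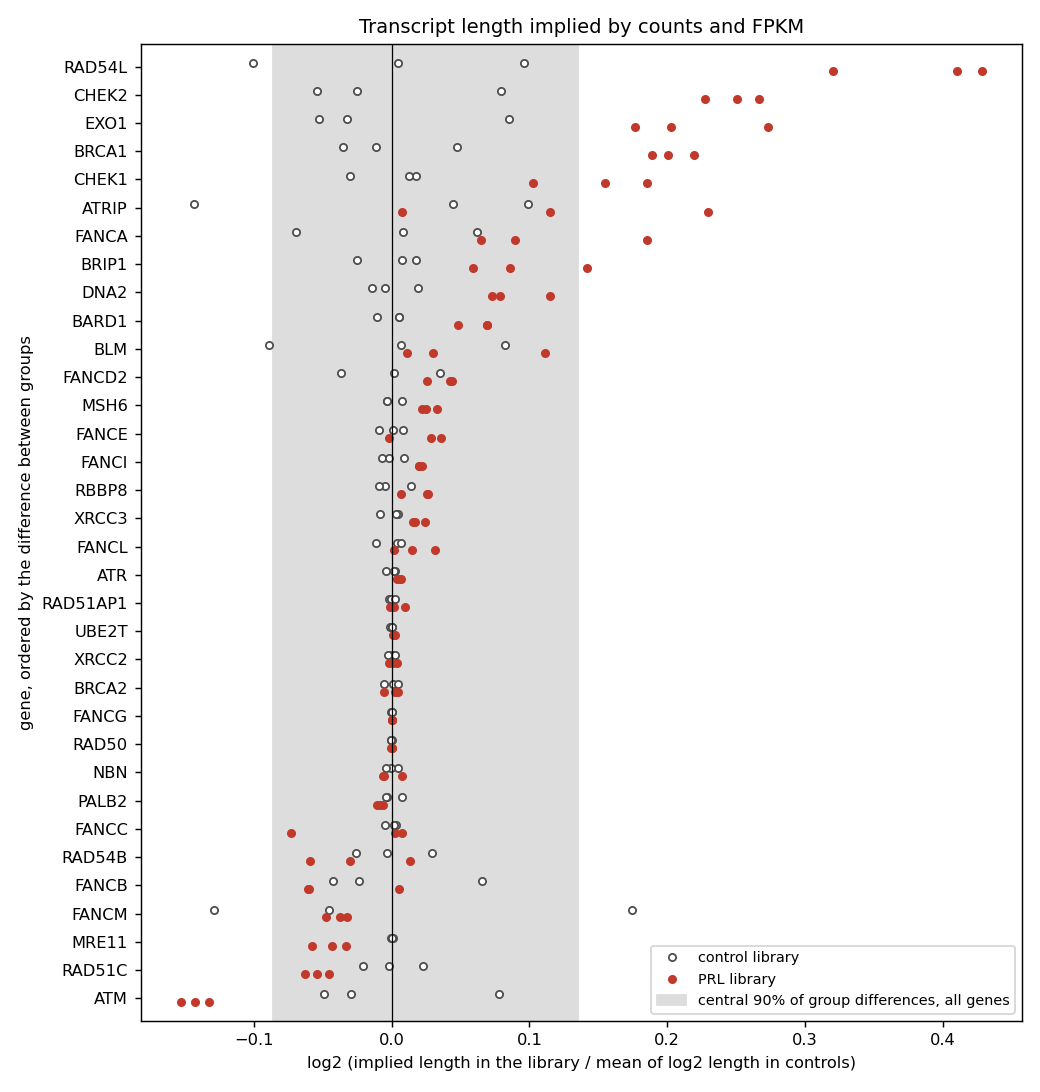
Implied transcript length of each member in each library, as log2 of the ratio to the control mean, ordered by the difference between groups; open circles are controls, red circles PRL libraries, and the grey band holds the central 90% of group differences over all genes. RAD54L, CHEK2, EXO1, BRCA1 and CHEK1 lie to the right of the band with their group difference and ATM to its left.

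Short genes were lower more often than long ones over all tested genes. Of 942 tested genes with an implied length under 1000 bases, 65.1% were lower, and of 2403 genes of 3000 to 4000 bases 21.6% were lower. The latter range held 10 members, the most of any range used. Ranges of 4000 to 6000 bases and of 6000 bases or more held 9 and 5 members, and 22.1% and 22.5% of their genes were lower. RAD51C and CHEK2 were in the range of 1000 to 1500 bases, where 51.4% of 1317 genes were lower. Across the 34 members the rank correlation of length with log2 fold change was -0.01, and across all 14076 tested genes it was 0.21, as a description over genes that share the same 6 libraries. With each library's length trend removed, 17 members fell and 4 rose, of which 15 and 3 were calls of the main comparison. In that fit 30.8% of all tested genes were lower and 31.3% higher.

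Other repair genes, 108 in 8 lists of related pathways, are given for comparison, and no difference from the members was tested. On the TMM scale 57 of the 108 (52.8%) fell and 7 (6.48%) rose, and the median was -0.26. With library totals 24 (22.2%) fell and 23 (21.3%) rose, and on TPM 15 (13.9%) fell and 38 (35.2%) rose. Of all tested genes 45.7% rose with library totals and 57.0% on TPM. Of the 108, 18.5% fell by at least 1.5-fold on the TMM scale, beside 8.82% of the members. Of 28 further recombination genes 17 fell and 1 rose (7 and 4 with library totals, 4 and 6 on TPM), led by RMI2 (-0.79), SEM1, a partner of BRCA2 (-1.08), and SWI5 (-0.97). Of 14 further Fanconi genes 6 fell and 1 rose (3 and 3 with library totals, 2 and 7 on TPM), among them CENPX (-1.21) and CENPS (-0.71), which bind FANCM, and the nuclease gene FAN1 (0.59), which rose. Of 17 further signalling genes 9 fell and 1 rose (6 and 5 with library totals, 5 and 6 on TPM), with TIPIN (-1.14), CLSPN, the adaptor through which ATR reaches CHEK1 (-1.11), and the phosphatase gene CDC25C (-0.81) having the smallest edgeR adjusted p. The falls named here kept their direction in all settings, and CENPS lost its call on TPM (limma adjusted p = 0.0789) and with the length trend removed (-0.22, adjusted p = 0.125).

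Of 14 end joining genes 8 fell and 2 rose on the TMM scale (4 and 3 with library totals, 3 and 3 on TPM). XRCC6, which encodes Ku70, fell from 612 ± 72.5 to 332 ± 1.39 CPM and PAXX from 207 ± 50.01 to 77.1 ± 4.47 CPM, while LIG4, the ligase of that pathway, rose from 6.40 ± 1.23 to 17.5 ± 0.387 CPM (1.45 in log2, edgeR adjusted p = 1.0e-05). Of 5 genes of polymerase theta end joining only LIG3 changed on the TMM scale (-0.34, but 0.61 on TPM), and POLQ itself (0.21) and XRCC1 (-0.07) did not pass. On TPM all 5 were called higher, POLQ at 0.50 and XRCC1 at 0.37, where 57.0% of all tested genes were higher. Base excision repair had 10 of 12 genes lower and none higher, with UNG (-0.65), OGG1 (-0.68) and TDG (-0.52), which lost their calls on TPM. With library totals 4 of the 12 fell and none rose, and on TPM 1 fell and 2 rose. Nucleotide excision repair had 3 lower and 1 higher of 12, namely XPC (0.50), beside CETN2 (-0.37) and DDB2 (-0.25), which lost their calls with library totals and lay at 0.09 and 0.14 on TPM. With library totals none of the 12 was lower and 6 were higher, and on TPM none was lower and 7 were higher. The share of all tested genes that were higher was 45.7% with library totals and 57.0% on TPM. Of the mismatch repair genes reported here, MSH3 (-0.29, but 0.14 on TPM) and PMS2 (-0.23, but called higher at 0.24 on TPM) fell and MLH3 rose (0.46). MSH3 and PMS2 did not pass with library totals.

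Among cell cycle lists, those of S phase and mitosis had medians further below 0 than the members on the TMM scale. Of 27 genes of S phase and replication 24 fell, with a median of -0.74 in log2, and none rose. Their summed level was 2916 to 3328 CPM in the controls and 1906 to 1928 CPM in the PRL group. MCM5 (-1.37), GINS1 (-1.06) and GINS2 (-1.23) had the smallest adjusted p. With library totals 19 of the 27 fell and none rose, and on TPM 14 fell and 3 rose. Of 20 genes of G2 and mitosis 14 fell and none rose (median -0.53), while 11 fell and 1 rose with library totals and 3 fell and 3 rose on TPM, with BIRC5 (-1.26), AURKB (-1.11) and CDC20 (-1.18) first. Among 19 regulators of the E2F, RB and MuvB families 7 fell and 5 rose (median -0.07; on TPM 2 fell and 11 rose), and MYBL2 (-1.14), E2F1 (-0.85) and FOXM1 (-0.60) fell, FOXM1 without passing on TPM. The part of cell cycle changes in the levels of the repair genes was not tested.

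**Figure D5:**
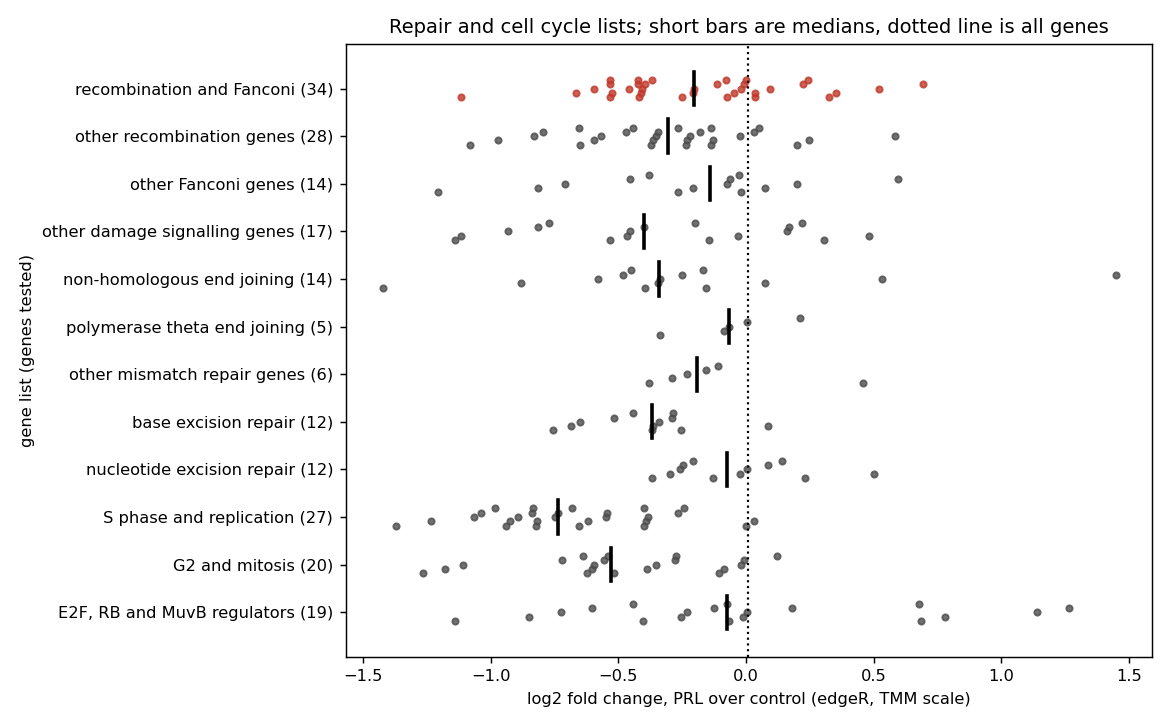
Log2 fold change (edgeR, TMM scale) of each gene in the 34 recombination and Fanconi genes (red) and in 11 other repair and cell cycle lists (grey), with the number of genes tested in brackets; short bars are medians and the dotted line is the median of all tested genes. The recombination and Fanconi genes lie around -0.21, to the right of the S phase list at -0.74 and the mitosis list at -0.53, and on TPM their median was 0.09.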

How the data were processed

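RNA of 6 T47D libraries had been sequenced, 3 per group. The submitters' processing notes name HISAT2 2.1.0, Bowtie2 2.3.4.3 and GRCh38.p13. No source used here gives the counting tool, annotation or strand setting. Per the file headers, the authors deposited a read count per gene and library beside FPKM and TPM, which the authors scaled for length and depth. Since 44.1% to 45.9% of a library's deposited counts are fractions, each is an estimated count, and they were rounded before testing. The 6 columns of the authors' group means were not used.

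All genes were fitted together with edgeR 4.0.16 under R 4.3.3 (robust quasi-likelihood on group, TMM scaling, edgeR's filter by group), with Benjamini-Hochberg adjustment over 14076 genes and a threshold of 0.05. SE is the absolute log2 fold change over the root of F. Implied length is the count over FPKM and depth. Per library it is given for genes with at least 20 counts and an FPKM of 0.5 in each library. For the ranges of length, the correlation with length and the length trend it was pooled over the 6 libraries, without that filter. Coordinates and exon overlaps come from GENCODE 29 on GRCh38. The fit was also run on simulated counts with 50 genes changed at each fold, in random directions. Of these, 26% were called at 1.25-fold, 86% at 1.5-fold and 98% at 2-fold, and 11 of 13714 unchanged genes were called. Far fewer genes changed there than were called in the data, so the simulation does not test the scaling.

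The members and lists were chosen with earlier results of these data known. Values in every library are given for members past the threshold with an absolute log2 fold change of at least 0.5, for those that rose, and for those that did not pass although their groups did not overlap. From the other repair and cell cycle lists the 3 smallest adjusted p were named, except for an item that is not reported here.

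Alternatives were DESeq2 size factors, upper quartile, library totals or TMM without ribosomal protein genes and PRL as scaling, other filters (none, or 3 libraries with a CPM of 1), the DESeq2 1.42.0 test, limma-voom (limma 3.58.1), a block on replicate number, omission of single libraries, unrounded counts, and limma, with its trend option, on log2(FPKM + 1), log2(FPKM + 0.1) or log2(TPM + 1) for genes with a mean of at least 1. Removal of each library's trend on gene length was added after seeing the data.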

Additional observations from a re-analysis of the deposited data

How the results depend on the processing

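RAD51C kept its direction and call in all 20 alternatives, and it was the only member of which this held. Counts moved most with library totals, FPKM and TPM, and the cause was not tested. With library totals 2398 genes were lower, and 4 members fell and 8 rose with a median of 0.048. On FPKM with a pseudocount of 1, 2356 genes were lower, and 7 members fell and 8 rose (median -0.10), and with 0.1, 2343 genes were lower, 7 members fell and 8 rose (median -0.11). BRCA2 was not tested on FPKM. On TPM 1375 genes were lower and 7118 higher, and 1 member fell and 11 rose (median 0.090). With 1 library left out, 14 to 16 members fell and 2 to 6 rose, with 2 rising without control replicate 1 or 2 or PRL replicate 1 or 2 and 6 without control replicate 3. Of all tested genes 25.7% to 32.7% were lower and 27.6% to 36.7% higher in these fits. 

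The labels do not say whether replicate numbers pair the libraries. Same-numbered libraries deviated from their group means with correlations of -0.12, 0.023 and -0.079, and unlike-numbered ones with -0.038 to 0.13. With 3 libraries per group these values cannot decide whether libraries were handled in pairs. With the replicate block 15 members fell and 3 rose, CHEK2 (adjusted p = 0.0859) and RAD50 (0.0615) lost their calls, and BARD1 changed sign to 0.0048. In that fit 29.2% of all tested genes were lower and 31.4% higher.

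Log2 values that changed sign against the TMM value were as follows. With library totals they were CHEK2 0.050, RBBP8 0.17, EXO1 0.047, BARD1 0.24, BRCA2 0.0031, RAD54L 0.21, FANCC 0.18, FANCL 0.13, UBE2T 0.24. On TPM they were MRE11 0.097, NBN 0.051, RBBP8 0.34, EXO1 0.032, BARD1 0.35, BRCA2 0.12, RAD54L 0.019, FANCC 0.30, FANCG 0.084, FANCL 0.30, UBE2T 0.44. On FPKM they were RBBP8 0.15, BARD1 0.17, FANCC 0.14, FANCL 0.12, UBE2T 0.24 with a pseudocount of 1 and RBBP8 0.18, BARD1 0.20, FANCC 0.20, FANCL 0.14, UBE2T 0.24 with 0.1. With the length trend removed they were ATR -0.089, CHEK2 0.0044, XRCC3 -0.017, RAD54B -0.12, FANCL 0.033, FANCM -0.045, UBE2T 0.48. With upper quartile scaling they were BARD1 0.043, RAD54L 0.0035, UBE2T 0.033. RAD54B, at 0.00 on TMM, was -0.015 with DESeq2 size factors, -0.0054 with TMM without ribosomal protein genes and PRL, -0.013 without a filter and -0.017 in the DESeq2 test. BARD1 was 0.0088 with the CPM filter and 0.0049 in limma-voom. With single libraries left out the values of the members that changed sign ran as follows, ATR from -0.025 to 0.16, BARD1 from -0.10 to 0.16, FANCC from -0.13 to 0.045, RAD54B from -0.084 to 0.13, RBBP8 from -0.18 to 0.10, UBE2T from -0.091 to 0.068.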

Other observations

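Members whose outermost annotated start lies close to that of a neighbour on the other strand were compared with it. Other starts of the same genes were not compared, and which start T47D cells use was not tested. By GENCODE 29, 12 protein-coding genes on the opposite strand start within 1000 bases of a member's start (or overlap it by up to 500 bases), a rule set after the data were seen, and 10 of them were tested. In 2 pairs both genes changed in the same direction: ATM with NPAT, a coactivator of histone genes (log2 fold change 0.28, edgeR adjusted p = 0.0274), and CHEK2 with HSCB, an iron-sulfur cluster chaperone (-0.68, edgeR adjusted p = 5.2e-04). In 5 pairs both changed in opposite directions on the TMM scale. Over all 895 such pairs of tested genes, both changed in the same direction in 26.4% and in opposite directions in 16.2%, beside 2 and 5 of the 10 member pairs. With library totals, where BRCA1, FANCB, DCTN5 and C12orf4 did not pass, the opposite pairs numbered 1 of 10 (RAD51C with TEX14). They numbered 1 of 9 on FPKM and 2 of 10 on TPM. Over all such pairs 14.5% were opposite with library totals, 16.3% on FPKM and 12.7% on TPM. TEX14 rose from 1.203 ± 0.366 to 5.55 ± 0.522 CPM beside RAD51C, which fell, and MOSPD2 rose from 6.67 ± 0.807 to 15.6 ± 1.44 CPM beside FANCB, which fell. NBR1, an autophagy receptor gene, rose from 82.8 ± 8.98 to 146 ± 3.75 CPM beside BRCA1, which fell. That pair rests on the outermost annotated start of BRCA1, base 43170245 of chromosome 17. DCTN5 (-0.27, and 0.15 on TPM) fell beside PALB2, and C12orf4 (-0.55) beside RAD51AP1, calls lost in 4 and 7 of the settings. The call of NPAT was lost in 7 settings and that of HSCB in 1. The rises of TEX14, MOSPD2 and NBR1 kept their calls in all settings that tested them. In the other 3 tested pairs at least 1 gene did not pass. FKBP3, beside FANCM, fell by 0.86 on the log2 scale.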
